A study of Mus musculus with 18 samples.

Results

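Glycolysis splits glucose into pyruvate in the cytosol, and lactate dehydrogenase turns pyruvate into lactate. Pyruvate that enters mitochondria is made into acetyl-CoA by the pyruvate dehydrogenase complex, which pyruvate dehydrogenase kinases switch off, and the tricarboxylic acid (TCA) cycle oxidizes it. Medial smooth muscle is known for a high rate of lactate production, whereas brown fat, a tissue that surrounds parts of the aorta, is known for its dense mitochondria. Expression of 41 enzymes of these routes was read from the gene counts of whole descending aorta: 23 glycolysis members (glucose uptake by Slc2a1, the glycolytic enzymes, lactate dehydrogenases and pyruvate dehydrogenase kinases) and 18 TCA members (the pyruvate dehydrogenase subunits, the cycle enzymes and pyruvate carboxylase, Pcx). Members were matched by symbol to the 54281 genes in the table, and 42 of its entries carry a member symbol, because Aldoa has a second identifier with 61 counts over all mice against 229045 for the one used. The list of members was chosen with earlier results of these data known.

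The aortas came from 18 male C57BL/6 mice in 3 groups of 6. HGPS mice (LMNAG609G, 64 to 75 days old) carry a point mutation in Lmna that makes progerin, the lamin A form of Hutchinson-Gilford progeria syndrome, from the gene's own promoter in all cells that express it. The study's text describes the model as homozygous and its methods name heterozygous mice as those supplied, while the labels give no zygosity. Their controls were 2-mo WT mice (62 days, and 95 days for 1 mouse), and 24-mo WT mice (609 to 762 days) stood for normal aging. WT mice were purchased, and the sources do not say that littermate controls were used, and Lmna counts per gene cannot check the genotype because the change is a point mutation. RNA came from all 3 wall layers, with 12413229 to 30844775 counts per mouse. Levels are CPM, a gene's counts scaled to a common library total after TMM normalization, and the mice within each group are separate animals.

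Of the 41 members, 40 had at least 10 counts in at least 6 mice and were tested. Pgam2, the muscle form of phosphoglycerate mutase, had 58 counts in all 18 mice together and was not tested for its level, though it enters an isoform ratio below. Differences were tested by edgeR's quasi-likelihood test on all 15210 genes that passed the count filter, with Benjamini-Hochberg adjustment over all of them. A gene is called past the cut-offs when it changed at least 1.5-fold with an adjusted p under 0.001 (the thresholds of the study), and a weaker rule, an adjusted p under 0.05 at any fold, is given beside it. Fold changes are on the log2 scale with their standard error (SE).

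In 2-mo WT aorta, the glycolysis members highest per length were Aldoa (aldolase, 692 TPM by its longest coding transcript), Gapdh (663 TPM) and Pkm (pyruvate kinase, 521 TPM). The lowest were Aldoc at 0.364 TPM and Pgam2 at 0.482 TPM. TCA members spanned a narrower range, from Dlat (the E2 subunit of pyruvate dehydrogenase, 29.4 TPM) and Pcx (30.4 TPM) to Mdh1 (cytosolic malate dehydrogenase, 164 TPM), Cs (citrate synthase, 158 TPM) and Pdha1 (the E1 alpha subunit of pyruvate dehydrogenase, 154 TPM).

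Before the results, the marker lists of other cell types were read in the same libraries. Brown fat markers were high in HGPS: the summed level of the 9 markers was 528 to 1791 CPM in HGPS, 216 to 687 CPM in 2-mo WT and 179 to 564 CPM in 24-mo WT mice. Ucp1, the uncoupling protein that defines brown fat, had a median of 317 CPM in HGPS, 79.8 CPM in 2-mo WT and 38.6 CPM in 24-mo WT mice, and Cidea had 149, 43.95 and 34.4 CPM. Of the 9 markers, 8 were higher in HGPS than in 2-mo WT at an adjusted p under 0.05, and Prdm16 was the exception (log2 fold change -0.49). Smooth muscle markers were lower, with a summed level of 19397 to 27187 CPM in HGPS against 29327 to 37790 CPM in 2-mo WT mice and 30258 to 34466 CPM in 24-mo WT mice, and 5 of the 6 were lower at an adjusted p under 0.05. Macrophage markers were higher, at 906 to 1466 CPM in HGPS against 486 to 752 CPM in 2-mo WT mice, with 8 of 8 passing. Fibroblast markers were lower at that threshold for 3 of 6 (Pdgfra, Dcn and Pi16). Skeletal muscle markers were at low levels, with a summed 6.44 to 13.3 CPM in HGPS, 5.15 to 6.93 CPM in 2-mo WT and 7.03 to 12.3 CPM in 24-mo WT mice and Myh4 at 0 in 12 of 18 mice. Of the 5 skeletal muscle markers tested, Tnnt3 and Myl1 were higher in HGPS than in 2-mo WT (log2 fold changes 2.00 and 2.05) and Ckm was lower (-1.08). Cardiac muscle markers summed to 11.98 to 30.1 CPM in HGPS, 3.63 to 6.31 CPM in 2-mo WT and 13.8 to 35.8 CPM in 24-mo WT mice, and 3 of 5 tested (Tnnt2, Myl7 and Actc1) were higher in HGPS than in 2-mo WT. The part of the fibroblast, skeletal muscle and cardiac muscle markers in the members' results was not tested, apart from a fit with brown fat and skeletal muscle scores together. In these whole aortas, fewer cells of a type and less RNA per cell cannot be told apart.

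HGPS vs 2-mo WT, glycolysis. The question was which members differ early in progeria. Of 22 tested glycolysis members, 5 were higher past the cut-offs (Hk2, Pgk1, Eno1, Ldha and Pdk4) and 1 was lower (Eno2), where 5.27% of all genes tested were higher and 4.23% lower. At an adjusted p under 0.05, 11 were higher and 4 lower (Hk1, Pfkm, Pfkp and Eno2), where 22% of all genes were higher and 21.2% lower. Their median log2 fold change was 0.28, against 0.003 over all genes tested. The groups did not overlap for 6 of 22 (Hk2, Pgk1 and Ldha higher, Pfkm, Pfkp and Eno2 lower), against 21.9% of all genes. The 6 past the cut-offs became 3 without HGPS mouse 2, HGPS mouse 6 or 2-mo WT mouse 2.

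Ldha, the lactate dehydrogenase subunit that prevails in tissues that make lactate, changed with the smallest p of the higher members. Its lowest, median and highest levels were 278, 404 and 472 CPM in HGPS, 173, 207 and 239.5 CPM in 2-mo WT and 185, 202 and 228 CPM in 24-mo WT mice. All 6 HGPS mice were above all 12 WT mice, and the log2 fold change against 2-mo WT was 0.95 ± 0.11 SE, a 1.93-fold rise (adjusted p = 2.97e-06). Pgk1, phosphoglycerate kinase, ran from 164 through a median of 194 to 266 CPM in HGPS, from 119.5 through 131 to 158 CPM in 2-mo WT and from 126 through 134 to 151 CPM in 24-mo WT mice. HGPS and WT values did not overlap, and the log2 fold change was 0.65 ± 0.10 SE (adjusted p = 5.26e-05). Pgk1 shares sequence with 3 near-identical copies in the table, of which 1 had counts, equal to 4.5% of those of Pgk1.

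Eno1, the widespread enolase, had levels of 246, 368 and 482 CPM in HGPS, 195, 209.9 and 264 CPM in 2-mo WT and 234, 258 and 324 CPM in 24-mo WT mice. One HGPS mouse, at 246 CPM, lay within the 2-mo WT range, and the log2 fold change was 0.78 ± 0.13 SE (adjusted p = 0.000151). Hk2, the insulin-responsive hexokinase, had levels of 75.4, 82.8 and 118 CPM in HGPS against 49.2, 55.5 and 68.1 CPM in 2-mo WT and 48.7, 59.6 and 76.7 CPM in 24-mo WT mice, and its log2 fold change was 0.68 ± 0.13 SE (adjusted p = 0.000349). HGPS did not overlap with 2-mo WT for Hk2 but did with 24-mo WT mice. Pdk4, the kinase that switches pyruvate dehydrogenase off when fat is burned, had levels of 70.5, 170.1 and 239.6 CPM in HGPS, 22.5, 53.9 and 83.5 CPM in 2-mo WT and 35.1, 65.5 and 101 CPM in 24-mo WT mice. The lowest HGPS mouse fell below the highest 2-mo WT mouse, and the log2 fold change was 1.54 ± 0.31 SE (adjusted p = 0.000558). Eno2, the enolase typical of neurons, had low levels, 2.5, 2.83 and 3.57 CPM in HGPS, 3.69, 5.00 and 6.92 CPM in 2-mo WT and 5.38, 7.49 and 9.08 CPM in 24-mo WT mice. Every HGPS mouse was below every WT mouse, and the log2 fold change was -0.83 ± 0.16 SE (adjusted p = 0.000513).

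**Figure D1:**
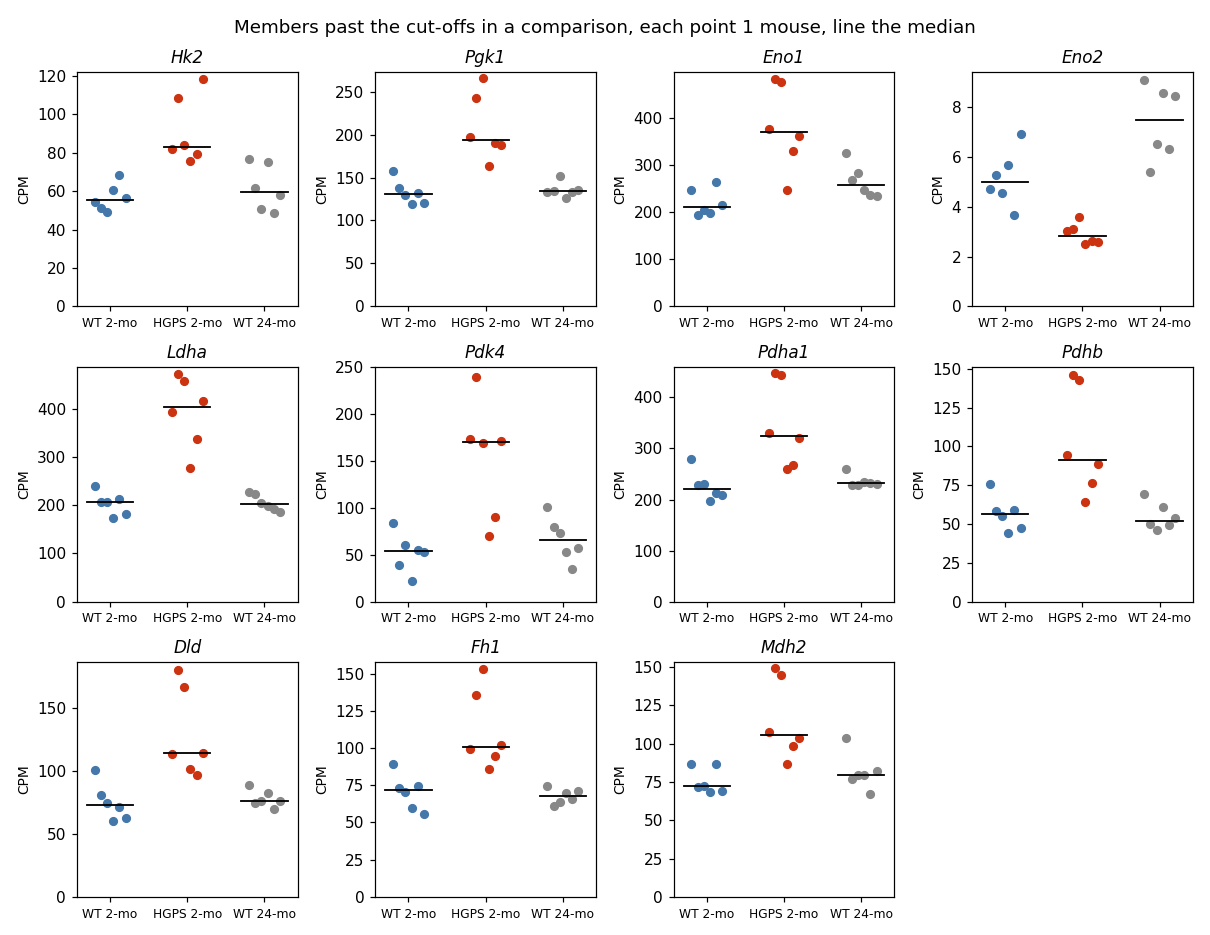
CPM of the 11 members past the cut-offs in at least 1 comparison, by group on the horizontal axis, each point 1 mouse and each line the group median. Ldha, Pgk1 and Eno2 separated HGPS from all 12 WT mice, while the TCA members of HGPS mice spread widely and overlapped with 2-mo WT.

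The remaining glycolysis members moved less. Pfkm, the muscle phosphofructokinase, was lower without overlap, at 64.7 to 75.4 CPM in HGPS and 94.2 to 103 CPM in 2-mo WT mice (log2 fold change -0.54 ± 0.06 SE, adjusted p = 1.42e-06), short of the fold cut-off. Pfkp, the platelet form, was lower too (-0.39 ± 0.06 SE, adjusted p = 5.27e-05). Hk1, the hexokinase bound to mitochondria in most cells, was lower at -0.26 ± 0.07 SE (adjusted p = 0.00517). Slc2a1, the glucose transporter, Pfkl, Aldoa, Gapdh, Pgam1 and Pdk1 were higher by 0.23 to 0.46 on the log2 scale, with adjusted p from 0.0018 to 0.0241. Gpi1, Aldoc, Tpi1, Eno3, Pkm, Ldhb and Pdk2 had adjusted p above 0.05, with log2 fold changes between -0.14 and 0.74.

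The sequence around the start of 3 higher members that hold the motif is shown because hypoxia-inducible factors bind the core ACGTG and are textbook regulators of these enzymes. Capitals mark ACGTG or its reverse complement CACGT, and the palindrome CACGTG counts on both strands. The promoters are 250 bases before to 50 bases after the start, from RefSeq for GRCm38.p6, 5′ to 3′ on the strand of the gene.
Ldha, chr7:46845554-46845853, plus strand: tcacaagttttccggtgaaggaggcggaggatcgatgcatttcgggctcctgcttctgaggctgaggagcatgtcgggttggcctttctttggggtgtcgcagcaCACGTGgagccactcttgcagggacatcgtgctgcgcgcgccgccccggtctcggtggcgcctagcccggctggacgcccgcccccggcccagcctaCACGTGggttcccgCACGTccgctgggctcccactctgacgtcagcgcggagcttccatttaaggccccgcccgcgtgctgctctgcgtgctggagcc
Pgk1, chrX:106186850-106187149, plus strand: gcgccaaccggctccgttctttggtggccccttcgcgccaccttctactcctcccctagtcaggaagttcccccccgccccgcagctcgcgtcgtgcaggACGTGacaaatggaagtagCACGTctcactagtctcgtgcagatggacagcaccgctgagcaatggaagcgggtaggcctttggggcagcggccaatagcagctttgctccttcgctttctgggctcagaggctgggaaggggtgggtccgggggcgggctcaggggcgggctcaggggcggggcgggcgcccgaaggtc
Hk2, chr6:82774405-82774704, minus strand: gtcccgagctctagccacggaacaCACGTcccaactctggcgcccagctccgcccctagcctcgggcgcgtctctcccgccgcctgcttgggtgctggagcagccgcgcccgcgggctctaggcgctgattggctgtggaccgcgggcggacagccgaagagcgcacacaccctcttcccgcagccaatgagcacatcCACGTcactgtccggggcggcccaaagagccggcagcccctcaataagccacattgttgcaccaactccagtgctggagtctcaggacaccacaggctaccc
This Ldha promoter held 5 matches, counting both strands, with CACGTG 2 times, and a second listed Ldha promoter held none. The Pgk1 and Hk2 promoters held 2 each. Eno1, also higher, had none in its 3 listed promoters, and Pdk4 had none in its single one. Pfkm, which was lower, held ACGTG in 2 of its 4 listed promoters, and Eno2, also lower, held none. ACGTG stood in at least 1 promoter of 12 of 23 glycolysis members and 5 of 17 TCA members that matched, against 21.8% of all genes. Counted by promoter, it stood in 14 of 36 for glycolysis (38.9%) and 10 of 23 for TCA (43.5%), against 19.6% of all 32851. Idh3a had no entry. A second motif, AAGGTCA (or TGACCTT), which oestrogen-related receptors bind, stood in 2 glycolysis members (Tpi1 and Eno1) and in 1 TCA member (Ogdh), against 5.38% of all genes. Counted by promoter, these were 2 of 36 and 1 of 23, against 4.72% of all promoters. The motifs and the 3 promoters shown were chosen after the results were seen, and a match is a description of the letters. Of 12 other hypoxia-inducible genes tested, 2 were higher and 1 lower at an adjusted p under 0.05, where 22% and 21.2% of all genes were, and Adm was the one past the cut-offs, lower at a log2 fold change of -0.92 ± 0.17 SE.

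HGPS vs 2-mo WT, TCA cycle. Nearly all TCA members were higher in HGPS, with a wide spread among the mice. At an adjusted p under 0.05, 16 of 18 were higher and 1 lower (Suclg2, the GTP-forming subunit of succinyl-CoA synthetase), and Idh2 did not pass (-0.12 ± 0.07 SE, adjusted p = 0.165). Past the cut-offs, 5 were higher (Pdha1, Pdhb, Dld, Fh1 and Mdh2) and none lower. The median log2 fold change was 0.64, against 0.003 over all genes tested. The backgrounds are those given for glycolysis (5.27% higher and 4.23% lower past the cut-offs, 22% and 21.2% at the weaker rule). The 16 higher members stayed 16 with any 1 of the 18 mice left out, but the 5 past the cut-offs went from 0 (without HGPS mouse 3 or any 1 of 2-mo WT mice 3, 4, 5 and 6) to 10 (without HGPS mouse 4).

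Pdhb, the E1 beta subunit of pyruvate dehydrogenase, had levels of 64.1, 91.4 and 146 CPM in HGPS, 43.98, 56.7 and 75.7 CPM in 2-mo WT and 46.03, 51.9 and 69.6 CPM in 24-mo WT mice, a log2 fold change of 0.85 ± 0.18 SE (adjusted p = 0.000973). Dld, the E3 subunit shared with other dehydrogenase complexes, had 96.7, 114 and 180.1 CPM in HGPS, 60.4, 72.7 and 101 CPM in 2-mo WT and 69.4, 76.0 and 89.0 CPM in 24-mo WT mice (0.78 ± 0.15 SE, adjusted p = 0.000377). Fh1, fumarase, had 86.1, 100.4 and 153 CPM in HGPS, 55.9, 71.7 and 89.3 CPM in 2-mo WT and 61.1, 67.6 and 74.4 CPM in 24-mo WT mice (0.66 ± 0.13 SE, adjusted p = 0.000466). In each of these 3, at least 1 HGPS mouse lay inside the 2-mo WT range.

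Pdha1 had 259.7, 325 and 447 CPM in HGPS against 196, 220.2 and 279 CPM in 2-mo WT and 228, 231 and 261 CPM in 24-mo WT mice (0.61 ± 0.12 SE, adjusted p = 0.000568). Mdh2, the mitochondrial malate dehydrogenase, had 86.6, 106 and 149 CPM in HGPS against 68.7, 72.1 and 87.1 CPM in 2-mo WT and 66.9, 79.5 and 104 CPM in 24-mo WT mice (0.60 ± 0.13 SE, adjusted p = 0.00092). Both overlapped with WT. Dlat, Cs, Idh3a, Idh3b, Idh3g, Ogdh (the oxoglutarate dehydrogenase E1), Dlst (its E2), Suclg1, Sucla2, Mdh1 and Pcx were higher by 0.34 to 1.37 on the log2 scale with adjusted p from 0.00128 to 0.0117. The largest was Pcx, which makes oxaloacetate from pyruvate (1.37 ± 0.34 SE, adjusted p = 0.00318), with 78.2, 187 and 247 CPM in HGPS and 35.1, 68.2 and 109 CPM in 2-mo WT mice. Suclg2 went the other way without overlap, at 80.3, 89.7 and 94.6 CPM in HGPS against 108, 118 and 126 CPM in 2-mo WT (-0.41 ± 0.06 SE, adjusted p = 3.9e-05). It was the one TCA member whose groups did not overlap, where 21.9% of all genes did not.

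**Figure D2:**
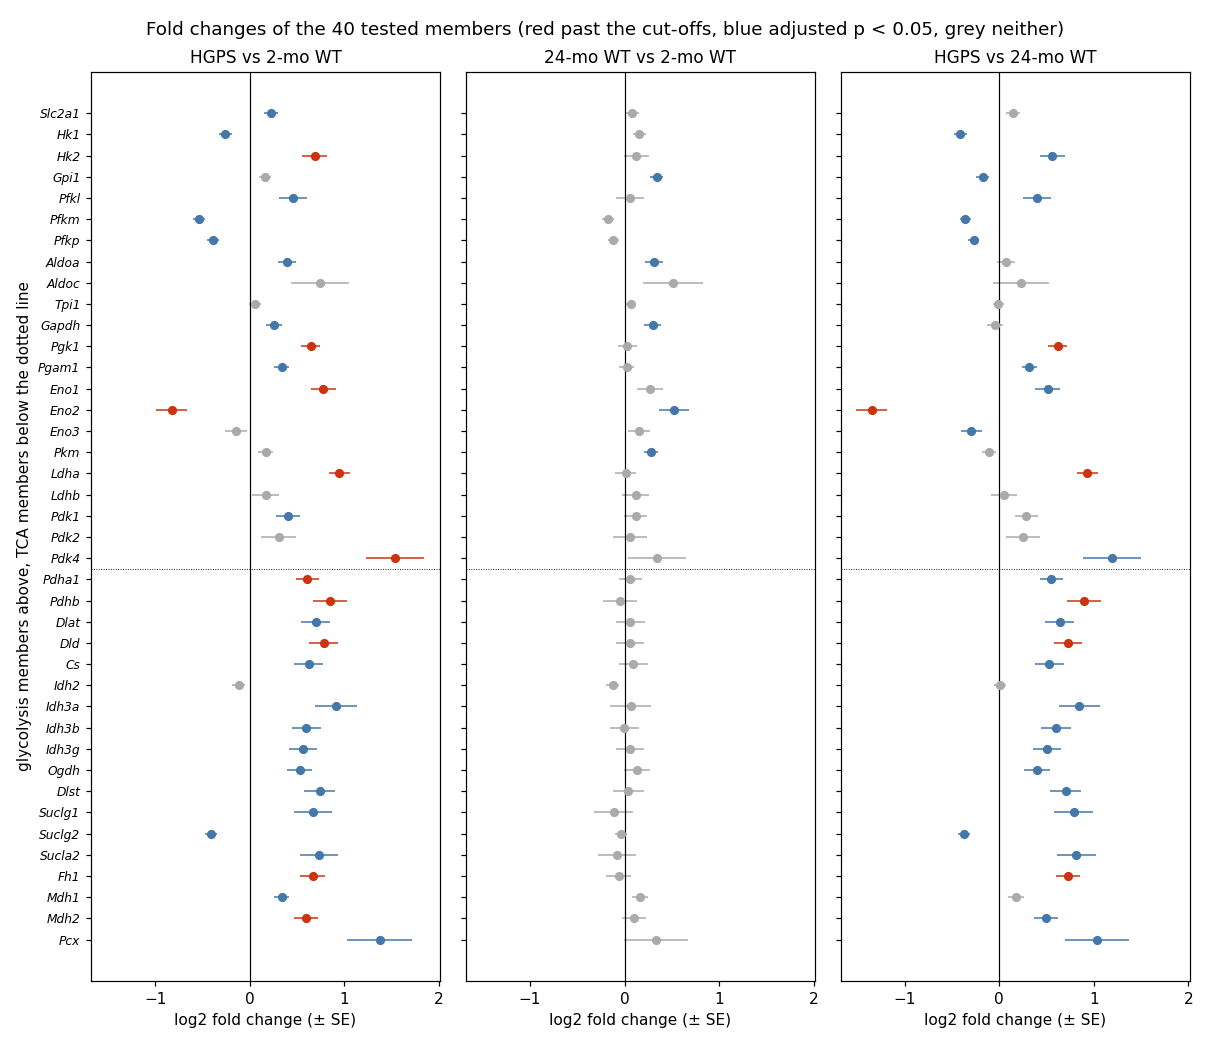
Log2 fold change (horizontal axis, with SE) of the 40 tested members in the 3 comparisons, glycolysis members above the dotted line and TCA members below it. In HGPS vs 2-mo WT, 16 of 18 TCA and 17 of 22 glycolysis members lay to the right of 0. In 24-mo vs 2-mo WT, 11 of 18 TCA and 20 of 22 glycolysis members did, and the largest glycolysis difference was 0.52.

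The TCA members were high in the mice with high brown fat markers. HGPS mice 2 and 3, the HGPS mice with the highest brown fat scores (6.58 and 6.18, mean log2 CPM of the 9 markers), were the 2 highest HGPS mice for 15 of 18 TCA members and 12 of 22 glycolysis members. HGPS mouse 4, with the lowest score of its group (4.60), was the lowest for 14 of 18 TCA members and 18 of 22 glycolysis members. Among 2-mo WT mice, mouse 1, with the highest score of that group (5.03), was the highest for 16 of 18 TCA members and 7 of 22 glycolysis members. Taking each mouse's median over the TCA members, as log2 above the mean of 2-mo WT, HGPS mice 2 and 3 stood at 1.00 and 1.12, HGPS mouse 4 at 0.161 and 2-mo WT mouse 1 at 0.405.

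With the brown fat score as a covariate, a fit added after the data were seen, no TCA member was higher at an adjusted p under 0.05 in HGPS vs 2-mo WT. The median log2 fold change of the TCA members was then 0.12 in place of 0.64, while the median SE went from 0.151 to 0.140. Over all 15210 genes tested, 1724 were higher and 1735 lower at that threshold in this fit, against 3340 and 3227 without the covariate. Suclg2 was still lower (-0.36 ± 0.09 SE, adjusted p = 0.00598), and Idh2 was lower as well (-0.29 ± 0.08 SE, adjusted p = 0.0126). Of the glycolysis members, Ldha was still higher (0.58 ± 0.11 SE, adjusted p = 0.00117) and so was Pgk1 (0.39 ± 0.12 SE, adjusted p = 0.0233), while Pfkm (-0.50 ± 0.08 SE), Pfkp (-0.27 ± 0.08 SE) and Eno2 (-0.87 ± 0.24 SE) stayed lower with adjusted p of 0.000429, 0.0163 and 0.0127. The calls of Hk2, Eno1 and Pdk4 were lost in that fit, with log2 fold changes of 0.49, 0.40 and 0.47 (0.68, 0.78 and 1.54 without the covariate) and adjusted p of 0.0557, 0.0741 and 0.271. Slc2a1 (0.20, against 0.23 without the covariate) and Hk1 (-0.24, against -0.26) also lost their calls, with adjusted p of 0.173 and 0.0861, while Pfkl went from 0.46 to 0.03. Aldoa (0.20, against 0.39), Gapdh (0.19, against 0.25), Pgam1 (0.17, against 0.34) and Pdk1 (0.05, against 0.40) lost theirs too. Of the 22 tested glycolysis members, 2 were higher and 3 lower in this fit at an adjusted p under 0.05. Without the covariate, 11 were higher and 4 lower. The score was 4.60 to 6.58 in HGPS and 1.65 to 5.03 in 2-mo WT mice, so this fit cannot fully tell score and group apart. Its 9 markers include Cox7a1 and Cox8b, of the respiratory chain, and Ppargc1a, a regulator of mitochondrial genes. How far the score itself follows mitochondrial genes of other cells was not tested.

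**Figure D3:**
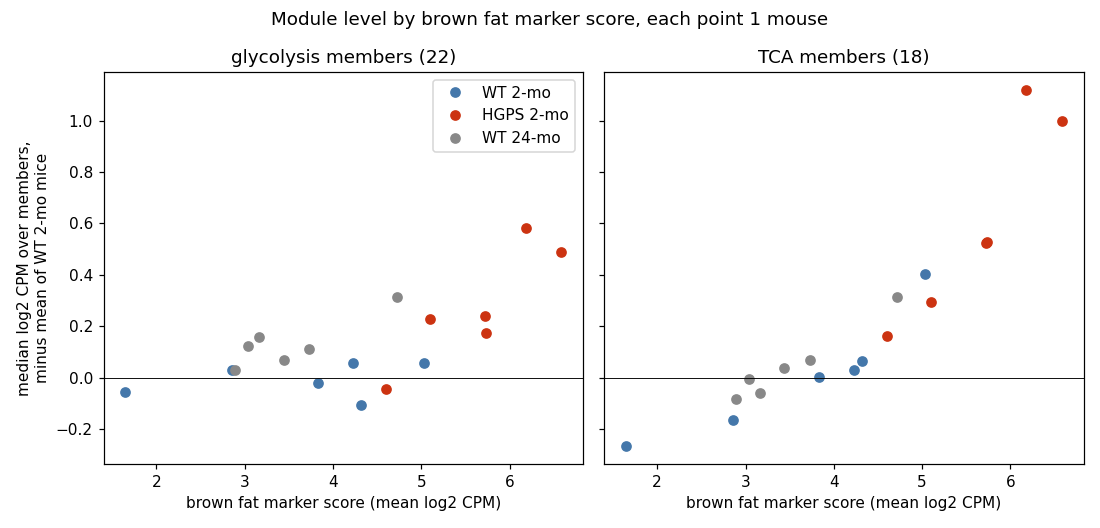
Median log2 CPM over the 22 tested glycolysis members or the 18 TCA members, minus the mean of 2-mo WT (vertical axis), against the brown fat score (horizontal axis), each point 1 mouse. HGPS mice lie from 4.60 to 6.58 on the score, 2-mo WT mice from 1.65 to 5.03 and 24-mo WT mice from 2.89 to 4.72.

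**Figure D4:**
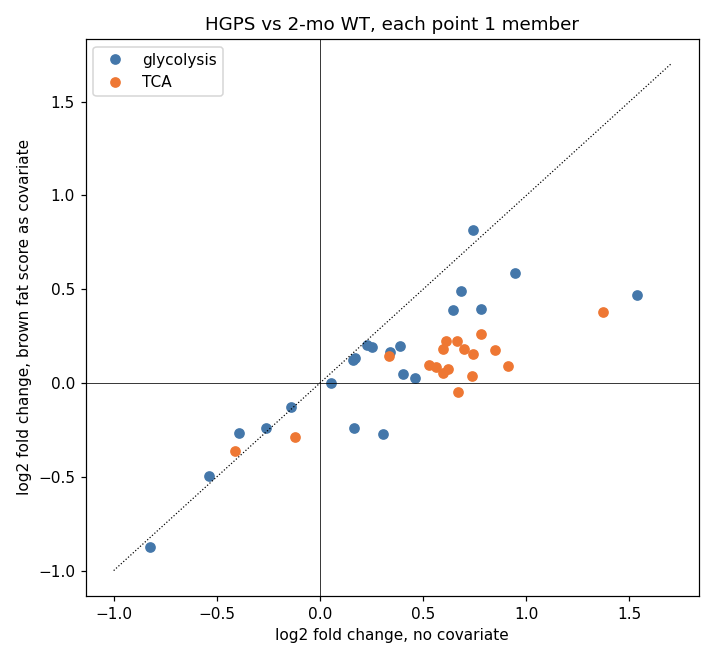
Log2 fold change in HGPS vs 2-mo WT of each tested member without (horizontal axis) and with (vertical axis) the brown fat score as covariate, glycolysis in blue and TCA in orange, with the line of equality dotted. The TCA members lie between -0.36 and 0.38 on the vertical axis, 15 of 18 of them above 0.

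Without HGPS mice 2 and 3, also chosen after the data were seen, 12 TCA members were higher at an adjusted p under 0.05 in HGPS vs 2-mo WT and none was past the cut-offs, whereas 8 glycolysis members were higher and 4 lower, with Ldha past the cut-offs. Over the 14916 genes tested in that fit, 2551 were higher and 2422 lower at that threshold, and 869 were past the cut-offs. The smooth muscle score separated HGPS (10.7 to 11.1) from 2-mo WT (11.3 to 11.5) without overlap, and with it as a covariate no member passed an adjusted p of 0.05 (over all genes, 36 were higher and 3 lower), while the median SE of the glycolysis members grew from 0.105 to 0.251, so that the score and the group cannot be told apart. The log2 fold changes in that fit included 0.70 for Eno1 (0.78 without the covariate), -0.70 for Eno2 (-0.83), 0.60 for Hk2 (0.68), 0.48 for Mdh2 (0.60) and -0.31 for Suclg2 (-0.41). Hk1 and Dlat were at 0.0023 (-0.26 without the covariate) and -0.01 (0.70). Ldha went from 0.95 to 0.52, Pgk1 from 0.65 to 0.33 and Pdk4 from 1.54 to 0.47. Pcx went from 1.37 to 0.05, Pdha1 from 0.61 to 0.04 and Sucla2 from 0.73 to -0.29. The median of the TCA members was 0.06 in place of 0.64, and Mdh2 was the highest of them. Adipocyte markers (8 of 10, with 1 lower), macrophage markers (8 of 8) and cell cycle markers (6 of 6) were also higher at an adjusted p under 0.05, and their part was not tested.

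Isoform ratios, which do not depend on library scaling apart from the prior count, were compared next. Pgam2 (58 counts in all mice) and Aldoc (267) were so low that the prior count of 2 weighs on Pgam2/Pgam1 and Aldoc/Aldoa, and neither ratio passed in any comparison. Of 11 pairs of sister enzymes, 8 ratios differed between HGPS and 2-mo WT and 7 between HGPS and 24-mo WT at an adjusted p under 0.05, by a two-sided exact permutation test adjusted over 33 tests, in which 0.00216 is the smallest p possible with 6 against 6. Some pairs share a denominator (Pfkm, Eno1 or Pdk2), so their ratios are not independent. How often ratios of other gene pairs differ was not tested. The Ldhb/Ldha ratio (log2) was -2.16 ± 0.21 (SD, n = 6) in HGPS, -1.36 ± 0.10 in 2-mo WT and -1.25 ± 0.18 in 24-mo WT mice, a difference from 2-mo WT of -0.80 (exact permutation test, adjusted p = 0.00648). Ldhb itself had levels of 65.9, 77.4 and 123 CPM in HGPS and 70.3, 76.1 and 98.2 CPM in 2-mo WT mice, and overlapped between the groups. The Hk2/Hk1 ratio was higher in HGPS, 0.58 ± 0.31 against -0.35 ± 0.16 in 2-mo WT, as Hk2 was higher and Hk1 lower.

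Eno2/Eno1 was -6.95 ± 0.23 in HGPS, -5.41 ± 0.44 in 2-mo WT and -5.16 ± 0.32 in 24-mo WT mice, the largest difference of the 11 (-1.54 against 2-mo WT). Eno3/Eno1 fell by 0.88 in HGPS vs 2-mo WT, while Eno3 itself differed by -0.14 ± 0.12 SE (adjusted p = 0.342 by edgeR). Pfkl/Pfkm was 0.97 higher and Pfkp/Pfkm 0.15 higher, the second with overlap. Pdk4/Pdk2 was 1.27 higher, while Pdk1/Pdk2 differed by 0.14 with an adjusted p of 0.404. Suclg2/Sucla2 was -1.11 ± 0.50 in HGPS against 0.01 ± 0.44 in 2-mo WT, with Sucla2, the ATP-forming partner, at 137 to 297 CPM in HGPS and 88.0 to 189.5 CPM in 2-mo WT mice, and the 2 groups overlapped. Between 24-mo and 2-mo WT mice, 0 of 11 ratios passed, with unadjusted p from 0.0974 to 0.994. The ratios were not fitted with the brown fat score.

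**Figure D5:**
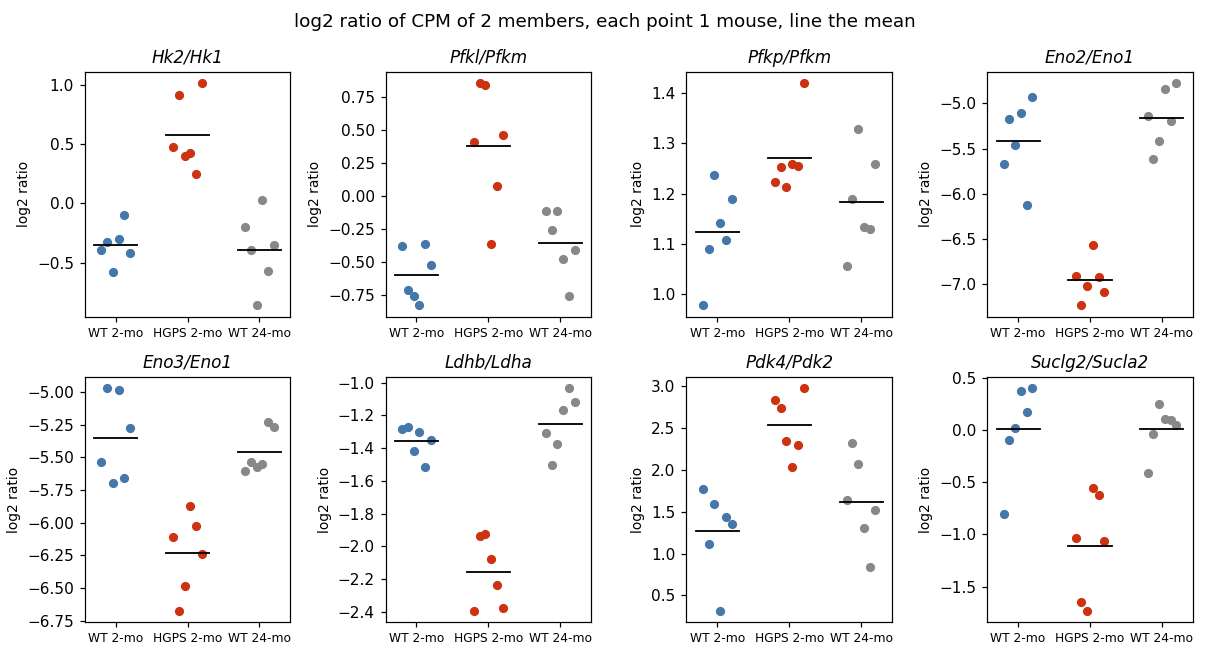
Log2 ratio of 2 sister enzymes (vertical axis) by group, each point 1 mouse and each line the mean, for the 8 pairs that passed in HGPS vs 2-mo WT. Ldhb/Ldha, Eno2/Eno1 and Eno3/Eno1 of the 6 HGPS mice lie below all 12 WT mice, and Hk2/Hk1 lies above them.

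24-mo WT vs 2-mo WT. The question was whether normal aging moves the same enzymes. No glycolysis or TCA member passed the cut-offs, where 1.28% of all genes tested were higher and 0.717% lower. At an adjusted p under 0.05, 5 of 22 glycolysis members were higher (Gpi1, Aldoa, Gapdh, Eno2 and Pkm) and none lower, where 6.29% of all genes were higher and 5.38% lower. Gpi1, phosphoglucose isomerase, was at 318 to 378 CPM in 24-mo and 250.4 to 298 CPM in 2-mo WT mice without overlap (0.34 ± 0.07 SE, adjusted p = 0.00212). Aldoa also did not overlap (0.31 ± 0.10 SE, adjusted p = 0.0363), and 6.28% of all genes did not overlap. Eno2 was higher by 0.52 ± 0.16 SE (adjusted p = 0.0361), whereas it was lower in HGPS vs 2-mo WT. The 5 higher members became 1 without 2-mo WT mouse 2, 2 without 2-mo WT mouse 1 or 3 or 24-mo WT mouse 3, and 3 without 2-mo WT mouse 4 or 24-mo WT mouse 1, 2 or 4. Of the 18 TCA members, none passed an adjusted p under 0.05 in either direction by edgeR or by DESeq2, and none had an unadjusted p under 0.05, while 7 glycolysis members did by edgeR. The median log2 fold change was 0.12 for glycolysis and 0.06 for TCA members. Brown fat scores of 24-mo WT (2.89 to 4.72) lay within the 2-mo WT range. Other lists moved with age: Schwann cell markers summed to 25.9 to 33.9 CPM in 24-mo and 19.4 to 22.4 CPM in 2-mo WT mice, with 3 of 3 tested higher at an adjusted p under 0.05, fibroblast markers were lower for 3 of 6 (Dpt, Pi16 and Col1a1), and of the 5 cardiac markers tested Tnnt2 was higher. Their part in the higher members was not tested.

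HGPS vs 24-mo WT. The question was how HGPS differs from normal aging directly; this comparison shares its mice with the others. Past the cut-offs, Pgk1 and Ldha were higher and Eno2 lower among glycolysis members, and Pdhb, Dld and Fh1 were higher among TCA members, where 6.02% of all genes were higher and 6.11% lower. Ldha rose by 0.93 ± 0.11 SE (adjusted p = 1.81e-06), Pgk1 by 0.62 ± 0.10 SE (adjusted p = 5.6e-05) and Eno2 fell by 1.35 ± 0.16 SE (adjusted p = 2.24e-06). Pdhb, Dld and Fh1 were higher by 0.89, 0.73 and 0.73 on the log2 scale. At an adjusted p under 0.05, 7 glycolysis members were higher and 6 lower, and 15 TCA members were higher and Suclg2 lower, where 23.8% of all genes were higher and 23.6% lower. The TCA members past the cut-offs became 8 without HGPS mouse 4, 5 without HGPS mouse 5, and 1 without HGPS mouse 2 or 3 or any 1 of 24-mo WT mice 2 to 6, and the glycolysis members became 6 without HGPS mouse 4. The 6 lower were Hk1, Gpi1, Pfkm, Pfkp, Eno2 and Eno3. The groups did not overlap for 6 glycolysis members and 4 TCA members (Dld, Sucla2 and Fh1 higher, Suclg2 lower), against 22.2% of all genes. With the brown fat score as covariate, no TCA member was higher, Suclg2 was lower, and Eno2 was the one member past the cut-offs (-1.40 ± 0.24 SE, adjusted p = 0.000336), while Ldha was higher at 0.54 ± 0.11 SE (adjusted p = 0.00186). Hk1 (-0.39 ± 0.10 SE, adjusted p = 0.00769) and Pfkm (-0.32 ± 0.08 SE, adjusted p = 0.00924) were also lower. Of all 15210 genes, 692 were past the cut-offs in this fit, and 2093 were higher and 2257 lower at an adjusted p under 0.05. The score was 4.60 to 6.58 in HGPS and 2.89 to 4.72 in 24-mo WT mice, so score and group cannot be fully told apart here either.

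Genes next to the pathways moved in part with the members. The part of the brown fat, adipocyte, macrophage and smooth muscle markers in their differences was not tested. Of 27 genes of pyruvate entry and TCA neighbours, 8 were higher past the cut-offs in HGPS vs 2-mo WT and none lower, where 5.27% and 4.23% of all genes were. Mpc1, a subunit of the mitochondrial pyruvate carrier, was higher without overlap (1.07 ± 0.13 SE, adjusted p = 4.78e-06), and Mpc2, its partner, by 0.68 ± 0.14 SE. Got1, the cytosolic aspartate aminotransferase of the malate-aspartate shuttle, was higher without overlap at 18.4 CPM on average against 8.79 CPM in 2-mo WT (1.06 ± 0.10 SE, adjusted p = 2.73e-07). The others were Pdhx, Sdhb, Sdhd, Acly and Slc25a1, higher by 0.65 to 1.05. Among 13 glycogen genes, Gbe1 and Pygl, the branching enzyme and the liver phosphorylase, were higher, and Pygm and Phkg1, the muscle phosphorylase and phosphorylase kinase subunit, were lower past the cut-offs, where the same shares of all genes were. Pygm fell by 1.13 ± 0.09 SE, from a mean of 92.3 to 42.2 CPM without overlap (adjusted p = 6.28e-08). Among 17 tested transport and regulator genes, Pfkfb3, which makes the activator of phosphofructokinase, was higher by 0.98 ± 0.16 SE, and Slc16a7, a monocarboxylate carrier, fell by 0.64 ± 0.09 SE. None of 8 pentose phosphate genes passed the cut-offs, and 6 were higher at an adjusted p under 0.05, where 22% of all genes were. None of 11 transcriptional regulators of these routes passed the cut-offs, and 5 were higher at the weaker rule. In 24-mo vs 2-mo WT, 4 genes of these lists were past the cut-offs, where 1.28% of all genes were higher and 0.717% lower. Tigar was higher (0.78 ± 0.08 SE, adjusted p = 3.45e-06) and so was Ndrg1, a hypoxia-inducible gene (0.98 ± 0.08 SE). Adm, another hypoxia-inducible gene, was lower (-1.10 ± 0.17 SE, adjusted p = 0.000226), and so was Phkg1 (-0.70 ± 0.11 SE, adjusted p = 0.00031). In HGPS vs 24-mo WT, 7 of the 27 neighbours were higher past the cut-offs and none lower, where 6.02% and 6.11% of all genes were, and Tigar (-1.01 ± 0.08 SE), Ndrg1 (-1.07 ± 0.08 SE) and Pygm (-1.31 ± 0.09 SE) were lower, while Pfkfb3, Gbe1 and Pygl were higher by 0.70 to 1.42.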

How the data were processed

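RNA of 18 descending aortas was sequenced as paired-end libraries from a stranded ribosome-depleted kit. The authors mapped reads with salmon to GENCODE M23 transcripts (GRCm38.p6) and summed them to genes with tximport, and deposited estimated counts as whole numbers (per the file, 54281 genes). The submitters' processing notes also name Bowtie 0.12.2, mm10 and GRCm38. The estimated counts were used here as whole counts. Symbols were taken from GENCODE M21, which held 54107 of the identifiers. edgeR 4.0.16 (R 4.3.3) fitted 3 groups in 1 quasi-likelihood model with TMM scaling and 15 residual degrees of freedom, on the 15210 genes whose count reached 10 or more in 6 or more mice. Log2 CPM used a prior count of 2. The fit was checked on simulated data with known changes. Ratios used two-sided exact permutation tests. DESeq2 1.42.0 was an alternative. Members, gene lists and alternatives were chosen with earlier results of these data known. All 41 members are named, those past the cut-offs in any comparison with levels by group, and other genes only if past the cut-offs in a list or as defining markers. The covariate fits with brown fat or smooth muscle alone, the fit without 2 HGPS mice, and the counts at an adjusted p under 0.05 as results of their own were added after the data were seen. Groups come from the sample titles. Totals were 12413229 to 30844775 counts. SE and SD cover these mice only. The p-values of edgeR set a group difference against the spread between mice, and those of the ratios set it against relabelled mice.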

Additional observations from a re-analysis of the deposited data

Results flagged for a closer look

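In groups of 6 mice, the gap between an extreme mouse and the next, divided by the range of the group, was compared with Dixon's 95% critical value for 6 values, for each member. Of 123 groups, 8 were above it, and chance gives about 1 in 20. In 24-mo WT mice, mouse 1 was the highest for Pdha1 (261 CPM, the others at 228 to 235), Suclg1 (78.2 CPM, the others at 51.3 to 57.6), Dlst (137 CPM, the others at 102 to 114) and Pdk2 (32.4 CPM, the others at 15.8 to 21.5). This mouse also had the highest brown fat score of its group, 4.72, and the part of that in the gap was not tested. In 2-mo WT mice, mouse 1 was the highest for Idh3b (122 CPM, the others at 72.3 to 90.7) and Suclg1 (92.7 CPM, the others at 48.3 to 63.7), with the highest brown fat score of its group, 5.03. Hk1 was lowest in 2-mo WT mouse 2 (64.0 CPM, the others at 71.4 to 75.7), and Pgk1 was highest in 24-mo WT mouse 3 (151 CPM, the others at 126 to 135).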

How the results depend on the processing

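RLE and upper-quartile scaling, at least 50 counts, a prior count of 0.5 and counts summed with near-identical copies moved no count by over 1.5 times and ended no member's call. At an adjusted p under 0.05 at any fold, 15 glycolysis and 17 TCA members passed in HGPS vs 2-mo WT, 5 and 0 in 24-mo vs 2-mo WT, and 13 and 16 in HGPS vs 24-mo WT. With DESeq2, 9 and 8 TCA members were past the cut-offs in HGPS vs 2-mo WT and vs 24-mo WT, and with only the 2 groups compared in the fit, 0 and 1 were. Over all genes, 1910 of 19766 and 2285 of 20835 were past them with DESeq2. With only the 2 groups, 1464 of 14771 and 1536 of 14925 were, against 1445 and 1845 of 15210 with all 3 groups by edgeR. In 24-mo vs 2-mo WT, 1 glycolysis member was lower by DESeq2, with the replicate block and with the smooth muscle covariate, and 1 was higher with no count filter or with brown fat and skeletal muscle covariates. Of all genes, 957 of 18699 were lower by DESeq2, and 755 and 844 of 15210 with the block and the smooth muscle covariate. With no count filter 776 of 28882 were higher, and with both covariates 620 of 15210. Deviations from the group means correlated from -0.16 to 0.17 between same-numbered mice. Differently numbered mice were not compared, so whether same-numbered mice share more than a number was not tested. With the replicate block, 2 TCA members were past the cut-offs in HGPS vs 2-mo WT, where 1265 of all 15210 genes were. In that setting 0 ratios passed in either HGPS comparison, where the smallest possible p of 0.0312 cannot pass after adjustment.

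With brown fat and skeletal muscle covariates or with brown fat alone, in HGPS vs 2-mo WT 0 members were past the cut-offs, 2 glycolysis and 0 TCA members were higher and 2 TCA members lower at the weaker rule, and the TCA median was 0.1336 and 0.1207. Of all 15210 genes, 372 and 388 were past the cut-offs in these 2 fits, against 1445 without covariates. At the weaker rule, 1841 and 1724 of all genes were higher and 1870 and 1735 lower. In HGPS vs 24-mo WT, 1 glycolysis and 0 TCA members were past the cut-offs, 1 and 0 higher, 3 glycolysis members lower, the glycolysis median turned to -0.1092 and -0.1088, and the TCA median was 0.01138 and 0.005247. Of all 15210 genes, 579 and 692 were past the cut-offs there, against 1845 without covariates. At the weaker rule, 1975 and 2093 of all genes were higher and 2024 and 2257 lower. With the smooth muscle covariate, 0 members passed either rule in the HGPS comparisons, the TCA medians were 0.05661 and -0.05686, and Dld in HGPS vs 24-mo WT turned to -0.0143. Of all 15210 genes, 1 and 6 were past the cut-offs in that fit, and 36 and 135 were higher and 3 and 76 lower at the weaker rule. Without HGPS mice 2 and 3, 1 glycolysis and 0 TCA members were past the cut-offs in HGPS vs 2-mo WT, and in HGPS vs 24-mo WT 0 TCA members were, with 9 higher at the weaker rule. Of all 14916 genes, 869 and 1327 were past the cut-offs, and 3001 were higher in HGPS vs 24-mo WT at the weaker rule. The causes were not tested.

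With each mouse left out in turn, the members past the cut-offs ranged from 3 to 6 (glycolysis) and 0 to 10 (TCA) in HGPS vs 2-mo WT and from 2 to 6 and 1 to 8 in HGPS vs 24-mo WT, both highest TCA values and the glycolysis 6 of the latter coming without HGPS mouse 4. Over all genes, 1104 to 1580 were past the cut-offs in HGPS vs 2-mo WT and 1560 to 1927 in HGPS vs 24-mo WT in these fits. In 24-mo vs 2-mo WT, 1 to 5 glycolysis members were higher and 0 to 1 lower, with 1 higher without 2-mo WT mouse 2. Without that mouse, 741 of all 15163 genes were higher. Ldha stayed past the cut-offs in both HGPS comparisons in all 18 fits.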
